A study of Mus musculus with 9 samples.

Results

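The Bcl2 family was followed through 10 genes: Bcl2, Bcl2l1, Mcl1, Bcl2l11, Bax, Bak1, Bbc3, Pmaip1, Bid and Bad. All probe sets annotated to 1 of these symbols were taken, which gave 24 of the 22690 probe sets of the array, for 9 of the 10 genes. A probe set is a group of short probes that together read 1 transcript. No probe set carries the name Bax in the annotation used, so Bax was not analysed here. Of the 24, 19 passed the filter on dim signals (a signal above 111 on at least 3 of 9 arrays), and each of the 9 genes kept at least 1. The study compared 3 kinds of mouse cell, all labelled as sorted hematopoietic cells, with 3 arrays each. GMP are normal granulocyte-macrophage progenitors of the bone marrow, cells that can still divide and give rise to granulocytes and macrophages. L-GMP were taken from the marrow of leukemic mice and resemble GMP. By the title of the study the leukemia was brought about by MLL-AF9, a fusion of the genes Kmt2a and Mllt3. The last 3 arrays, called L-GMP-derived here, bear only a code in their titles and name L-GMP as their source. They were read as the cells grown from L-GMP in culture, by elimination, because no other label matches that group. The sources used here give no strain, age, promoter of the fusion gene or pooling of animals. They do not say whether the arrays stand for separate mice or cultures. The p-values therefore set differences between groups only against the spread among these arrays, and that spread may be technical.

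Proteins of the Bcl2 family decide whether the outer membrane of the mitochondrion is opened, the step that releases cytochrome c and starts the caspase cascade. Survival members (Bcl2, Bcl2l1, which encodes Bcl-xL, and Mcl1) hold the effectors Bax and Bak1 in check. The BH3-only members (Bcl2l11, known as Bim, Bbc3, known as PUMA, Pmaip1, known as NOXA, Bid and Bad) sense stress or loss of growth factors and bind the survival members or the effectors. In myeloid progenitors Mcl1 is required for survival, and cytokine signals restrain Bim, Bad and PUMA. Much of the control of these proteins lies in their stability, phosphorylation and cleavage, which arrays do not read.

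The stretches upstream of 2 BH3-only genes are shown because their transcription is known to be raised by forkhead factors such as Foxo3, and because they were the members whose upstream windows held the forkhead motif GTAAACA. Each run gives the 250 bases before an annotated start, 5′ to 3′ on the strand of the gene, from RefSeq (GRCm38.p6), with the match in capitals.
Bcl2l11 (chr2:128125788-128126037, + strand): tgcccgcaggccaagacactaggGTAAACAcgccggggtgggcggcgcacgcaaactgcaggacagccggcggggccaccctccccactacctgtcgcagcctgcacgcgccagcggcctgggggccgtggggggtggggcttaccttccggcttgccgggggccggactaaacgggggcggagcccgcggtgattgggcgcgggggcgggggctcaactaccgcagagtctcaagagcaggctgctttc
Bbc3 (chr7:16310011-16310260, + strand): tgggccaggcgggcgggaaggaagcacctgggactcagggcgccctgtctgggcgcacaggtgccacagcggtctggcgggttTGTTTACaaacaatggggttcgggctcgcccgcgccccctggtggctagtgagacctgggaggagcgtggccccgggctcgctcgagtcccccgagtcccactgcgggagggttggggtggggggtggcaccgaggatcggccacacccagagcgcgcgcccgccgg
The Bcl2l11 match lies 227 to 221 bases before the start, and the Bbc3 match, on the other strand, 167 to 161 bases before it. Searched on both strands, the motif occurred in 2 of 15 windows of the members and in 3.17% of all 32851 windows of this length. A match describes letters and is not evidence of binding.

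The 9 arrays had correlations of 0.958 to 0.991 within groups and 0.898 to 0.928 between groups. L-GMP-derived replicate 1 stood apart, at 0.958 and 0.964 with the other arrays of its group, which correlated at 0.989 with each other. Among markers of GMP, Kit read 67.0 to 110.2 in L-GMP-derived cells against 778 to 861 in GMP and 587 to 771 in L-GMP, and Cd34 read 18.7 to 55.6, 495 to 631 and 189 to 436. Elane, a granule protease gene of these progenitors, read 5460 to 7852 over all 9 arrays. Mpo was 9224 to 9476, 4647 to 6806 and 319 to 3581 in GMP, L-GMP and L-GMP-derived cells, and Csf1r was also lowest in the last. Cebpa was lowest in L-GMP (280 to 419) and Fcgr3 highest there (724 to 941), while Ctsg was highest in L-GMP-derived cells. All 10 GMP identity genes summed to 40866 to 42187 in GMP, 30410 to 36781 in L-GMP and 24722 to 29275 in L-GMP-derived cells. The summed signal of 9 mature neutrophil genes was 9056 to 22689 in GMP, 17929 to 36735 in L-GMP and 975 to 8499 in L-GMP-derived cells. That of 6 mast cell, eosinophil and basophil genes was 1606 to 1861, 3581 to 5787 and 243 to 362. Of these, Prg2 read 2425 to 2984 in L-GMP against 98.7 to 410 in GMP and 17.4 to 30.6 in L-GMP-derived cells. Cpa3 and Gata2 overlapped between L-GMP and GMP, and Mcpt8 was lower in L-GMP (49.2 to 102) than in GMP (152 to 173). For 9 monocyte and macrophage genes the sum was 5178 to 5389, 6216 to 7053 and 4155 to 4536. Its genes did not all move with it. Of the 6 tested, 3 (Adgre1, Cd68 and C1qb) rose and 1 (Ccr2) fell in L-GMP against GMP. The median log2 change was 0.96 there, and over all tested genes 13.1% rose and 12.8% fell. In L-GMP-derived cells 2 of the 6 (Adgre1 and Cd68) rose and 1 (Ccr2) fell against GMP. The median log2 change was 0.65 there, and over all tested genes 13.4% rose and 10.7% fell. Adgre1 read 2749 to 3423 in L-GMP, 361 to 387 in GMP and 402 to 1297 in L-GMP-derived cells. Ccr2, the brightest in GMP, read 3442 to 3791 in GMP and 859 to 2363 in L-GMP-derived cells. The sum of 8 T and NK cell genes was 1038 to 1130.2 in GMP, 1118 to 1194 in L-GMP and 1298 to 1469 in L-GMP-derived cells, where Thy1 read 122 to 530.6 against 23.5 to 48.1 on the other arrays. The sum of 6 erythroid and megakaryocyte genes was lower in L-GMP-derived cells (1056 to 1215) than in GMP (1316 to 1589) and L-GMP (1325 to 1612). The groups overlapped for 6 B cell genes (2581 to 3157). RNA quality was read from control genes, as the signal of the 3′ probe set over that of the 5′ one. For beta-actin it was 6.99 to 8.12 in GMP, 4.87 to 5.56 in L-GMP and 6.93 to 7.18 in L-GMP-derived cells. For Gapdh the groups overlapped, at 7.08 to 8.77, 6.17 to 11.6 and 5.86 to 9.22. The part of these differences in the results that follow was not tested, except where arrays were left out.

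Against normal GMP, the member probe sets called in leukemic cells were all higher. Most of them belonged to death-promoting genes, but so do most of the tested members. With all arrays, the share of members called was above that of all probe sets in L-GMP and below it in L-GMP-derived cells. Both orders turned over with some single arrays left out. Groups were free of overlap for a smaller share of members than of all probe sets in both comparisons. Whether these shares differ was not tested. In L-GMP 6 of the 19 tested member probe sets rose and 0 fell: those of Pmaip1, Bid (1 of 2), Bad (both), Bcl2l11 (1 of 3) and Bcl2l1 (1 of 2). This is 31.6% of the member probe sets, where 25.9% of all 14578 tested probe sets passed the same threshold, an adjusted p of 0.05 in limma with Benjamini-Hochberg adjustment (13.4% higher and 12.6% lower). Arrays of the 2 groups did not overlap for 8 member probe sets (42.1%), against 46.3% of all tested probe sets. The median log2 change of the members was 0.14, against -0.0032 over all. The count of 6 became 2 without GMP replicate 2, without GMP replicate 3 or without L-GMP replicate 1. Of all probe sets 18%, 17% and 21.2% were called in these settings, so the share of members was then the lower one.

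In L-GMP-derived cells 4 member probe sets rose against GMP and 0 fell: those of Pmaip1, Bbc3, Bak1 and Bcl2l1. That is 21.1% of the members, where 24.4% of all probe sets were called (14.0% higher and 10.4% lower). Without GMP replicate 3 the count was also 4, where 15.8% of all probe sets were called. For 7 of 19 (36.8%) the groups did not overlap, against 40.9% of all. The members' median log2 change was 0.05, against 0.01 over all. Both comparisons share the 3 GMP arrays, so a low or high GMP array moves both. Between the leukemic groups 1 member probe set was higher in L-GMP-derived cells (Bbc3) and 2 were lower (Bid and Bcl2l11), 15.8% where 29.9% of all probe sets were called (16.4% higher and 13.5% lower). For 4 of 19 (21.1%) these groups did not overlap, against 40.4% of all. The median log2 change there was -0.09 over the members and -0.0013 over all probe sets. By role, 5 of 9 tested BH3-only probe sets rose in L-GMP and 2 of 9 in L-GMP-derived cells, and of 9 survival probe sets 1 rose in each. Over all probe sets 13.4% rose in L-GMP and 14.0% in L-GMP-derived cells. Probe sets of 1 gene are not independent: Mcl1 alone has 6 of the survival ones. Bad has 2 of the BH3-only ones, both called in L-GMP.

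**Figure D1:**
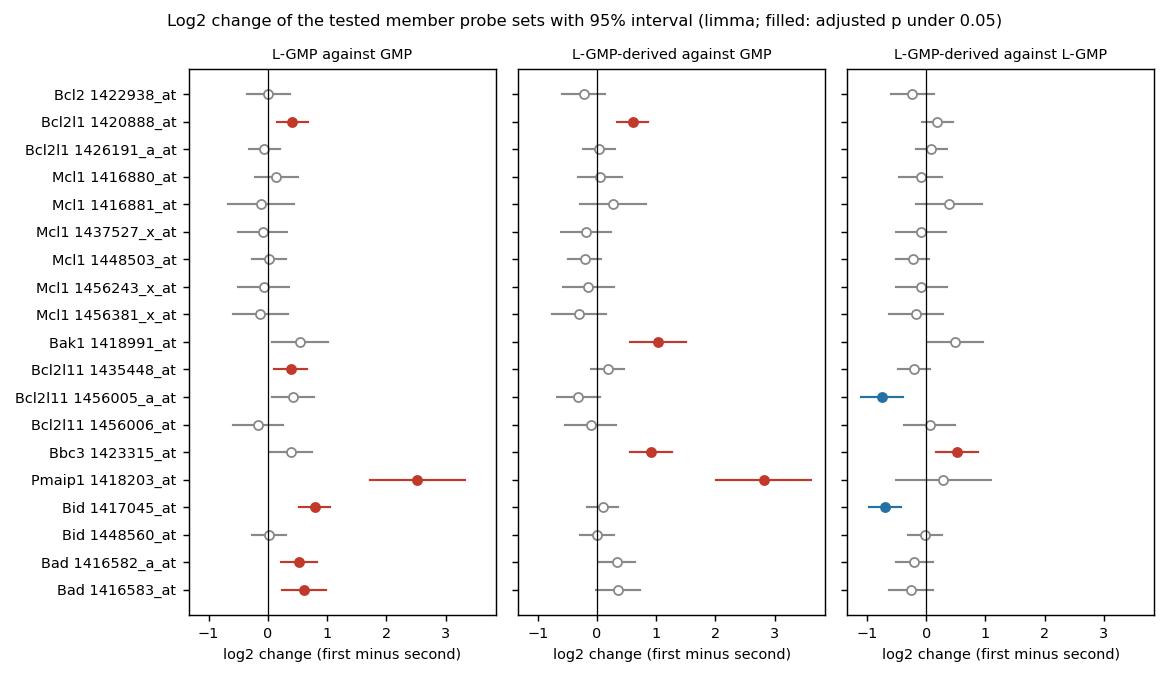
Log2 change of each of the 19 tested member probe sets (rows, by role) in the 3 comparisons (panels), with its 95% interval from limma on all 9 arrays. Filled points passed an adjusted p of 0.05, red for higher and blue for lower in the group named first. Pmaip1 stands furthest to the right in both comparisons with GMP, and the 6 Mcl1 intervals include 0 in every panel.

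Pmaip1 showed the largest difference of the family. The gene encodes NOXA, a BH3-only protein known for binding Mcl1 and as a target of p53 and of the stress factor ATF4. In GMP its probe set read 43.4, 203 and 68.4 on replicates 1 to 3. In L-GMP it read 637, 534 and 487, and in L-GMP-derived cells 629, 728 and 664. The leukemic arrays all lay above the highest GMP array, and the GMP arrays spread widely, with replicate 1 below the signal floor of 62.4. The means were 105 ± 85.9 in GMP, 553 ± 76.6 in L-GMP and 674 ± 49.8 in L-GMP-derived cells (SD, n = 3).

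Between mean log2 signals, with the 1 GMP signal below the floor raised to it, Pmaip1 was 5.76-fold higher in L-GMP than in GMP (log2 change 2.53 ± 0.36 SE, adjusted p = 5.92e-04, limma). In L-GMP-derived cells it was 7.05-fold higher (2.82 ± 0.36 SE, adjusted p = 3.29e-04). The ratios of the mean linear signals were 5.27 and 6.42. Without GMP replicate 2, the brightest GMP array, the log2-based folds became 8.40-fold and 10.3-fold, and without GMP replicate 1 they were 4.66-fold and 5.71-fold. Between the leukemic groups the difference was 0.29 with a 95% interval of -0.51 to 1.09 (adjusted p = 0.593). As in every comparison of bulk samples here, fewer cells with the RNA and less RNA per cell cannot be told apart.

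Bbc3 encodes PUMA, which is known to bind every survival protein of the family and is a target of p53 and of forkhead factors. Its probe set read 162, 244 and 208 in GMP. In L-GMP it read 279, 255 and 261, and in L-GMP-derived cells 430.2, 380.4 and 334. The 3 groups formed 3 steps with no overlap, with GMP lowest and L-GMP-derived cells highest. L-GMP-derived cells were 1.88-fold above GMP (381 ± 48.4 against 205 ± 41.1; log2 change 0.91 ± 0.16 SE, adjusted p = 0.00229). The step from GMP to L-GMP (265 ± 12.4) was 1.31-fold and did not pass the test (adjusted p = 0.101).

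The upper step of Bbc3, from L-GMP to L-GMP-derived cells, was 1.43-fold (log2 change 0.52 ± 0.16 SE, adjusted p = 0.0315). That call ended without GMP replicate 3 (adjusted p = 0.0511), L-GMP replicate 1 (0.0525), 2 (0.0915) or 3 (0.0799), L-GMP-derived replicate 1 (0.0696) or 2 (0.0736), and over all alternatives its adjusted p ran from 0.0176 to 0.0915. The rise over GMP kept its call in all 18 alternatives (adjusted p 5.29e-04 to 0.0311).

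Bid links death receptors to mitochondria: caspase-8 cleaves the protein into a form that activates Bax and Bak1. Its probe sets disagreed. The dimmer one (1417045_at) read 307, 282 and 249 in GMP and 502, 448 and 494 in L-GMP. In L-GMP-derived cells it read 319.8, 297 and 276, within reach of GMP. L-GMP thus stood above both other groups, with no overlap.

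On that probe set Bid was 1.73-fold higher in L-GMP than in GMP (481 ± 29.2 against 279 ± 29.3; log2 change 0.79 ± 0.12 SE, adjusted p = 9.32e-04). It was 1.62-fold lower in L-GMP-derived cells (297 ± 22.0) than in L-GMP (log2 change -0.70 ± 0.12 SE, adjusted p = 0.00169). Between L-GMP-derived cells and GMP the change was 0.09, with an interval of -0.18 to 0.36. Both calls held in all 18 alternatives. The brighter probe set (1448560_at) read 1613.9 to 1926 in L-GMP, 1647 to 1957 in GMP and 1511 to 2085 in L-GMP-derived cells. There the change from GMP to L-GMP was 0.02, with an interval of -0.27 to 0.31, which leaves out the change seen on the dimmer probe set. The sources used here do not say which part of the Bid transcript each probe set reads. The 3′ to 5′ ratio of beta-actin, though not that of Gapdh, also set L-GMP apart from both other groups. So did the summed signals of the mast cell, eosinophil and basophil genes and of the monocyte and macrophage genes. Higher in L-GMP than in both other groups without overlap were only Prg2 of the first list and Adgre1 and Cd68 of the second. The part of RNA quality and of these genes in the difference was not tested.

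Bcl2l11 encodes Bim, the BH3-only protein best known for the death of blood cells deprived of cytokines. The gene has 5 probe sets, of which 3 were tested. The brightest (1456005_a_at) read 760.3, 877 and 947 in GMP, 1327, 1280.1 and 908 in L-GMP, and 625, 754 and 699 in L-GMP-derived cells. L-GMP-derived arrays lay below those of both other groups, while L-GMP replicate 3 lay within the range of GMP.

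From L-GMP to L-GMP-derived cells this probe set fell 1.67-fold (1172 ± 229 to 693 ± 64.8; log2 change -0.74 ± 0.16 SE, adjusted p = 0.00562), and the call held in all 18 alternatives. Against GMP (861 ± 94.2) neither leukemic group passed the test, with log2 changes of 0.43 in L-GMP (adjusted p = 0.0748) and -0.31 in L-GMP-derived cells (adjusted p = 0.188). Without L-GMP replicate 3 the first of these passed (adjusted p = 0.0136; 0.0136 to 0.361 over all alternatives).

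A dimmer Bcl2l11 probe set (1435448_at) read 287.0, 287 and 299.8 in GMP, 410.1, 339.8 and 394 in L-GMP, and 373, 325 and 296 in L-GMP-derived cells. It was 1.30-fold higher in L-GMP than in GMP (log2 change 0.38 ± 0.13 SE, adjusted p = 0.0455). This call was close to the threshold. It ended without GMP replicate 1 (adjusted p = 0.11), 2 (0.123) or 3 (0.103), L-GMP replicate 1 (0.131) or 3 (0.12), or L-GMP-derived replicate 2 (0.0562), with a range of 0.0223 to 0.273 over all alternatives. The third (1456006_at) read 116 to 190.3 over all arrays and passed in no comparison. The Bcl2l11 probe sets thus gave log2 changes of both signs between L-GMP and GMP, from -0.17 to 0.43.

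Bad is a BH3-only protein that binds Bcl2 and Bcl-xL and is held inactive by phosphorylation downstream of growth factors. Its brighter probe set (1416582_a_at) read 869.7, 847 and 805 in GMP, 1366, 1246 and 1051 in L-GMP, and 892, 1113 and 1197 in L-GMP-derived cells. The other (1416583_at) read 261, 266 and 241, then 488, 357 and 341, then 267, 349.6 and 372. On both probe sets all leukemic arrays lay above all GMP arrays.

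In L-GMP Bad was 1.45-fold above GMP on the brighter probe set (log2 change 0.53 ± 0.14 SE, adjusted p = 0.0167) and 1.53-fold on the other (0.61 ± 0.17 SE, adjusted p = 0.0223). The brighter one lost its call without GMP replicate 2 (adjusted p = 0.0531), GMP replicate 3 (0.0689), L-GMP replicate 1 (0.0624) or L-GMP replicate 2 (0.0548; 0.0013 to 0.109 over all alternatives). The other lost it without GMP replicate 1 (0.0547), 2 (0.056) or 3 (0.0874) or L-GMP replicate 1 (0.0743; 0.00388 to 0.148 over all alternatives). In L-GMP-derived cells the log2 changes from GMP were 0.33 and 0.35 (adjusted p = 0.105 and 0.16). Without L-GMP-derived replicate 1, the lowest Bad array of that group, both passed (adjusted p = 0.0164 and 0.038; 7.16e-04 to 0.3 and 0.00228 to 0.386 over all alternatives).

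**Figure D2:**
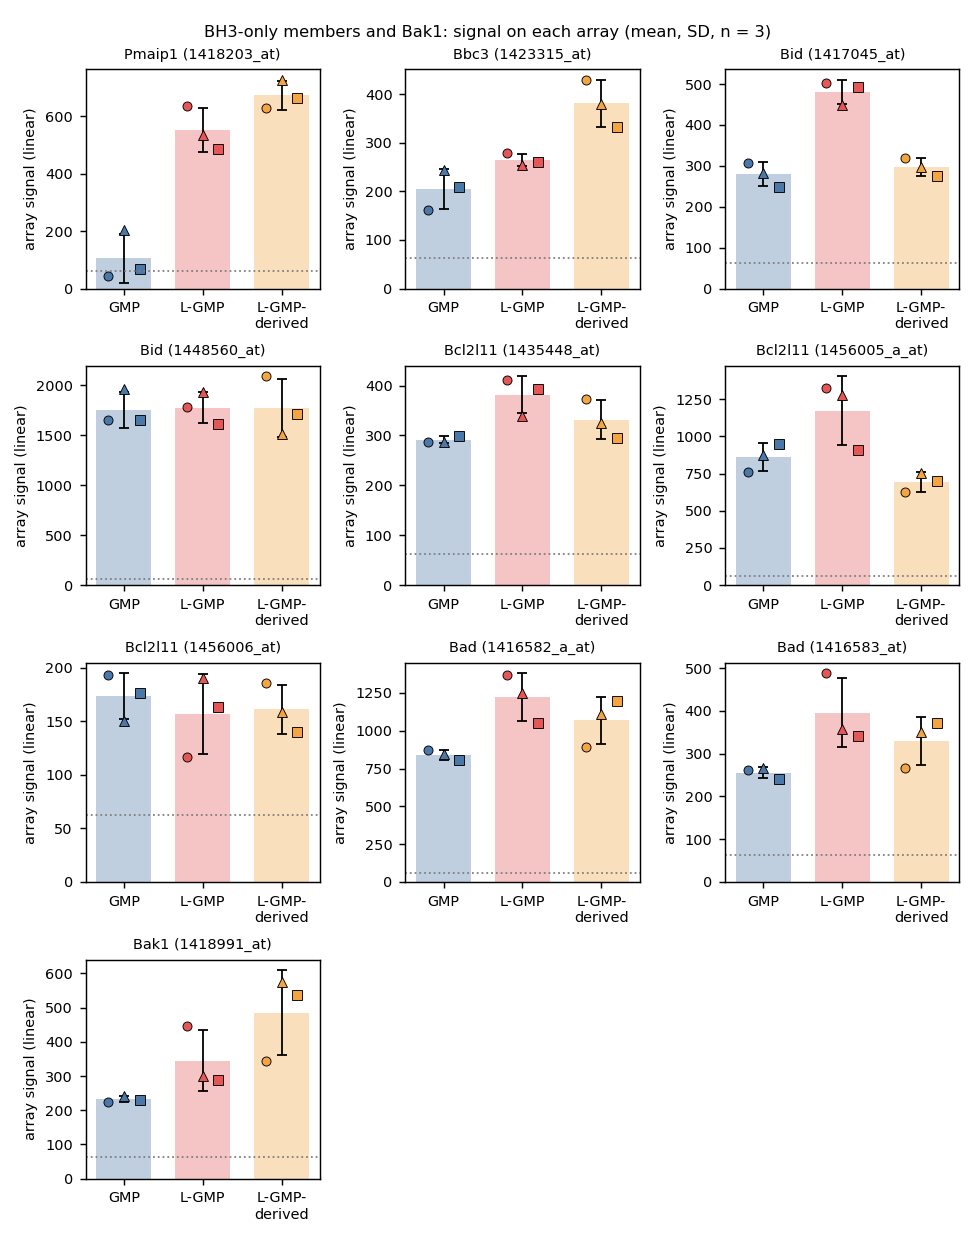
Array signal (linear, vertical axis) of the 10 tested probe sets of BH3-only genes and Bak1 in the 3 groups. Bars are means, error bars SD (n = 3), circles, triangles and squares are replicates 1, 2 and 3, and the dotted line is the floor at 62.4. Pmaip1 is higher on every leukemic array than on any GMP array, Bid 1417045_at is high in L-GMP alone, and Bid 1448560_at overlaps in all groups.

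Bak1 encodes 1 of the 2 effectors that form pores in the outer mitochondrial membrane. Its tested probe set (1418991_at) read 225, 243 and 229 in GMP, 447, 299 and 288 in L-GMP, and 343, 576 and 537 in L-GMP-derived cells. Every leukemic array lay above every GMP array, and both leukemic groups were more spread out than GMP. L-GMP-derived cells were 2.04-fold above GMP (486 ± 125 against 232 ± 9.25; log2 change 1.03 ± 0.22 SE, adjusted p = 0.00616; 1.44e-05 to 0.0736 over all alternatives). That call held with any 1 array left out.

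In L-GMP (345 ± 88.5) Bak1 was 1.46-fold above GMP, which did not pass (adjusted p = 0.0928), and L-GMP-derived cells were 1.40-fold above L-GMP (adjusted p = 0.118). Without L-GMP-derived replicate 1, which read lowest of its group, both passed (adjusted p = 0.0255 and 0.0101), and the second also without L-GMP replicate 1 (0.0351). Over all alternatives these 2 p-values ran from 0.0229 to 0.309 and from 0.00228 to 0.328. The other effector, Bax, was not analysed here.

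Bcl2l1 was the survival gene with a change. It encodes Bcl-xL and, by another splice form, a short protein that promotes death, which these probe sets are not labelled to tell apart. One probe set (1420888_at) read 247, 226 and 215 in GMP, 340.3, 286 and 291 in L-GMP, and 327, 376 and 343 in L-GMP-derived cells. All 6 leukemic arrays lay above the 3 GMP arrays. The rise was 1.33-fold in L-GMP (306 ± 30.2 against 229 ± 16.0; log2 change 0.41 ± 0.12 SE, adjusted p = 0.0277) and 1.52-fold in L-GMP-derived cells (348 ± 24.9; 0.60 ± 0.12 SE, adjusted p = 0.00453).

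The rise of Bcl2l1 in L-GMP no longer passed without GMP replicate 2 (0.0856), GMP replicate 3 (0.111) or L-GMP replicate 1 (0.0926), with adjusted p-values of 0.00829 to 0.127 over all alternatives. The rise in L-GMP-derived cells held in all 18 alternatives (adjusted p 1.39e-04 to 0.048). The leukemic groups differed from each other by 0.19, with an interval of -0.07 to 0.46. A second probe set (1426191_a_at) read 222 to 294 over all arrays, with a log2 change of -0.06 in L-GMP (interval -0.33 to 0.21) and 0.03 in L-GMP-derived cells (-0.24 to 0.30). As with Bid, the probe sets of the gene disagreed.

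Mcl1, the survival gene that myeloid progenitors depend on, passed the test in none of the 3 comparisons on any of its 6 probe sets. The brightest (1448503_at) read 2537, 3773 and 3496 in GMP, 3074, 3504 and 3217 in L-GMP, and 2670.1, 2947 and 2743 in L-GMP-derived cells. GMP replicate 1 was the lowest GMP array on all 6, and L-GMP-derived replicate 1 the lowest of its group on all 6. The spread of GMP was therefore wide (3269 ± 648 against 3265 ± 219 in L-GMP and 2786 ± 143 in L-GMP-derived cells).

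Over the 6 probe sets the log2 change of Mcl1 from GMP ran from -0.13 to 0.14 in L-GMP and from -0.30 to 0.27 in L-GMP-derived cells. On the brightest the 95% interval was -0.27 to 0.30 in L-GMP and -0.49 to 0.07 in L-GMP-derived cells. Without GMP replicate 1 that probe set and 1456381_x_at passed as lower in L-GMP-derived cells than in GMP (adjusted p = 0.0115 and 0.0463, ranges 0.0115 to 0.661 and 0.0463 to 0.705 over all alternatives). The brightest also passed as lower there with array weights (adjusted p = 0.0235) and with the replicate number as a block (0.0342). Leaving out GMP replicate 1 also brought the brightest past the threshold between the leukemic groups (adjusted p = 0.0454, with 0.0454 to 0.442 over all alternatives). Probe sets whose names end in _x_at can bind related transcripts, and 3 of the 6 are of that kind.

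Bcl2, the founding survival gene, was dim. It read 127, 121 and 96.4 in GMP, 96.6, 119 and 129.9 in L-GMP, and 105, 99.0 and 89.3 in L-GMP-derived cells, above the filter on 4 of 9 arrays. The groups overlapped. The log2 change was 0.01 in L-GMP (95% interval -0.36 to 0.37) and -0.22 in L-GMP-derived cells (-0.59 to 0.14).

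**Figure D3:**
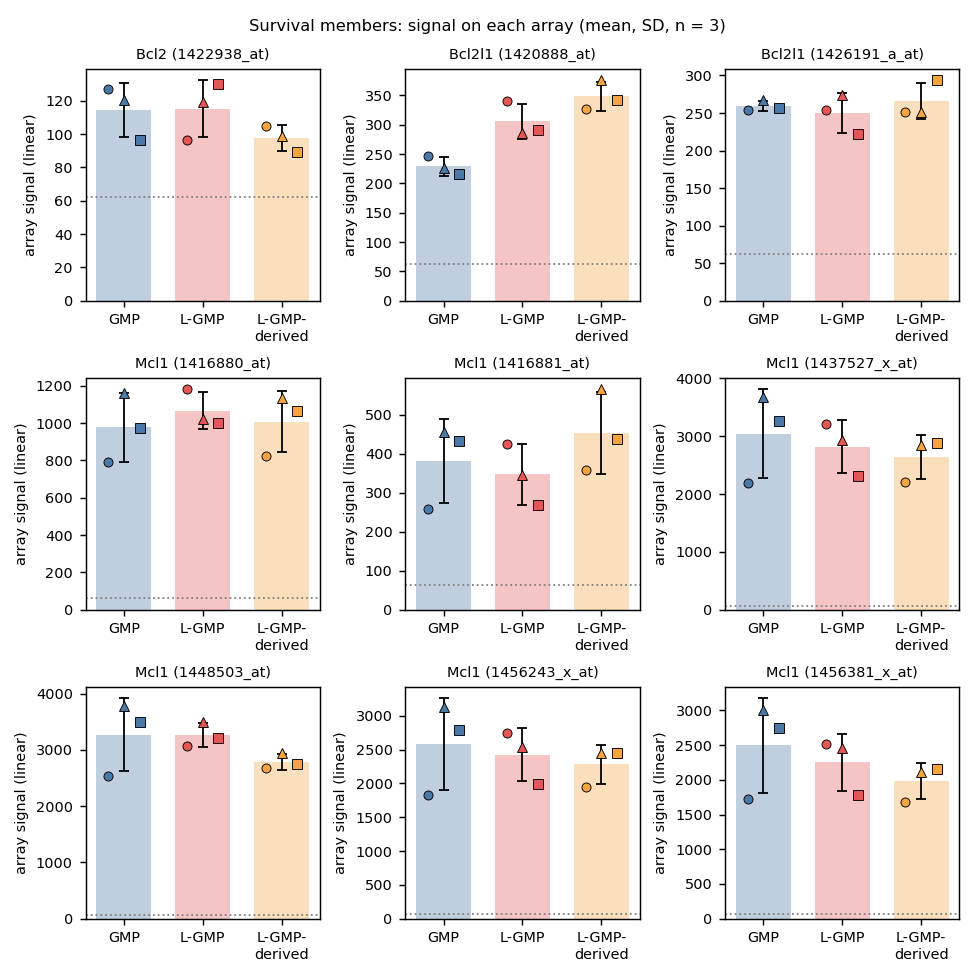
Array signal (linear, vertical axis) of the 9 tested probe sets of Bcl2, Bcl2l1 and Mcl1 in the 3 groups, drawn as bars of the mean with SD (n = 3) and circles, triangles and squares for replicates 1, 2 and 3. The dotted line is the floor at 62.4. Bcl2l1 1420888_at is higher on all leukemic arrays than on GMP arrays, while the groups overlap for Bcl2 and most Mcl1 probe sets.

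The 5 member probe sets below the filter were 2 of Bcl2l1, 2 of Bcl2l11 and 1 of Bak1. For Bcl2l1 they read 43.6 to 98.8 (1420887_a_at) and 5.46 to 46.6 (1426050_at). For Bcl2l11 they read 18.8 to 42.3 (1426334_a_at) and 12.1 to 45.6 (1435449_at), at or below the floor on all 9 arrays. The Bak1 probe set 1425716_s_at read 42.8 to 82.9. These signals are too near background to compare groups.

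For the 2 members with a called change of at least 2-fold, the tested genes of most similar pattern over the 9 arrays were sought, by the root mean square difference of centred log2 signals. Bak1 was closest to Slc48a1 (0.06; means 333, 490 and 672 in GMP, L-GMP and L-GMP-derived cells), a heme transporter gene, and to the mitotic kinase gene Plk1 (0.11). The median over 8956 genes was 0.54. Pmaip1 was closest to F10, which encodes coagulation factor X (0.47; means 272, 1326 and 1908), and to the homeobox gene Hoxa10 (0.52), where the median was 1.37. The likeness is a description of these arrays.

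Genes that surround the family were given by list, beside all 8965 tested genes, of which 13.1% rose and 12.8% fell in L-GMP, 13.4% rose and 10.7% fell in L-GMP-derived cells, and 16.6% rose and 14.1% fell between the leukemic groups. Of 14 tested genes of p53 and its targets, 1 rose and 0 fell in L-GMP (median log2 change 0.12). In L-GMP-derived cells 5 rose and 1 fell against GMP (median 0.28), and 4 rose and 3 fell against L-GMP (0.10). Cdkn1a, the Cdk inhibitor p21, read 73.8 to 207 in GMP, 171 to 183 in L-GMP and 607 to 1224 in L-GMP-derived cells, 7.37-fold above GMP (adjusted p = 2.06e-04). Zmat3 was at least 3.26-fold higher (adjusted p = 8.00e-04), Phlda3 2.87-fold (6.54e-04) and Ccng1 1.85-fold (0.00396), each with no overlap. Pmaip1 and Bbc3, also known p53 targets, are family members given above. Trp53inp1 was the gene of this list that rose in L-GMP (2.08-fold, adjusted p = 0.0261). It no longer passed without GMP replicate 1 (0.0509), 2 (0.099) or 3 (0.0636) or L-GMP replicate 1 (0.0605) or 2 (0.0859; 3.81e-04 to 0.106 over all alternatives). Trp53inp1 was also 1 of the 3 genes lower in L-GMP-derived cells than in L-GMP (2.31-fold, adjusted p = 0.0117; 0.00178 to 0.0642 over all alternatives). The count of 3 lower genes between the leukemic groups became 1 without L-GMP replicate 2 or 3, and the lower gene against GMP became 2 without GMP replicate 1. Without L-GMP-derived replicate 1 the 1 higher gene in L-GMP became 2.

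Among 12 genes of the apoptosome and caspases, 1 rose and 5 fell in L-GMP (median -0.11), 3 rose and 0 fell in L-GMP-derived cells against GMP (0.04), and 4 rose and 1 fell against L-GMP (0.12). Endog, a nuclease of the mitochondrion, read 90.0 to 116 in L-GMP, 402 to 459.6 in GMP and 398 to 752 in L-GMP-derived cells, a 4.17-fold fall in L-GMP (adjusted p = 8.04e-05). Aifm1, the apoptosis-inducing factor, fell 1.54-fold (adjusted p = 7.09e-04). Htra2, a mitochondrial protease that antagonises caspase inhibitors, was 2.37-fold higher in L-GMP-derived cells than in L-GMP (adjusted p = 1.68e-04). The 1 higher gene in L-GMP (Apaf1) became 0 without GMP replicate 2 or 3 or L-GMP replicate 1 or 3. The count of 5 lower genes became 2 without any 1 GMP array or without L-GMP replicate 3, and 3 without L-GMP replicate 1, L-GMP replicate 2 or L-GMP-derived replicate 3. That of 3 higher genes in L-GMP-derived cells became 1 without GMP replicate 2 or 3 or L-GMP-derived replicate 2 or 3. Without L-GMP-derived replicate 1 the lower genes in these cells became 2 both against GMP and against L-GMP.

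Of 7 caspase inhibitor genes 4 fell and 0 rose from L-GMP to L-GMP-derived cells (median -0.51). They were Naip2 (1.80-fold, adjusted p = 0.00256), Cflar (1.65-fold, 0.00391), Birc2 (1.44-fold, 0.00469) and Birc3 (1.42-fold, 0.0286). The call of Birc3 ended without L-GMP replicate 1 (0.0616) or 3 (0.0946) or L-GMP-derived replicate 1 (0.0596) or 3 (0.0625; 0.0152 to 0.0946 over all alternatives). Naip2 was 2.40-fold higher in L-GMP than in GMP (adjusted p = 2.49e-04), the 1 gene of the list that rose there, with 0 lower (median 0.11). That count became 2 without GMP replicate 1 or L-GMP replicate 2 and 3 without L-GMP-derived replicate 1. In L-GMP-derived cells 0 rose and 2 fell against GMP (median -0.24), Birc2 and Birc6, and the count was 0 without any 1 GMP array and 1 without any other single array. Without L-GMP-derived replicate 1, 1 gene of the list was higher there. Of 5 death receptor genes 0 rose and 0 fell in L-GMP, 0 rose and 1 fell in L-GMP-derived cells against GMP, and 0 rose and 2 fell against L-GMP (medians 0.07, -0.24 and -0.09). The 1 lower gene (Tnfrsf1a) became 0 without any 1 GMP array, L-GMP replicate 2 or L-GMP-derived replicate 1 or 2, and the 2 lower genes became 1 without L-GMP replicate 1 or 2. Without L-GMP-derived replicate 1, 1 gene was higher in each leukemic group than in GMP. Fadd, the adaptor between death receptors and caspase-8, was 1.53-fold lower in L-GMP-derived cells than in L-GMP (adjusted p = 0.00455).

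Of 11 other genes of the family or named for it, 2 rose and 1 fell in L-GMP (median 0.08), 2 rose and 0 fell in L-GMP-derived cells against GMP (0.05), and 2 rose and 1 fell against L-GMP (0.04). Bcl2l2, which encodes the survival protein Bcl-w, was 1.48-fold higher in L-GMP-derived cells than in GMP (adjusted p = 0.0112; 0.0521 without GMP replicate 3, 1.01e-04 to 0.0521 over all alternatives). Bnip3, a mitophagy receptor gene known to respond to low oxygen, read 279 to 349.5 in GMP, 275 to 420.1 in L-GMP and 661 to 2042 in L-GMP-derived cells (4.02-fold above GMP, adjusted p = 0.00191). The 2 higher genes in L-GMP became 1 without GMP replicate 2 or 3 or L-GMP replicate 1 or 3, and the 1 lower gene (Bcap29) became 0 without any 1 GMP or L-GMP array or L-GMP-derived replicate 3. In L-GMP-derived cells against GMP the 2 became 1 without GMP replicate 3 and 4 without L-GMP-derived replicate 1. Against L-GMP the 1 lower gene (Tmbim6) became 0 without L-GMP replicate 1 or 3 or L-GMP-derived replicate 2 or 3. Of the BH3-only genes Bik, Bmf and Hrk none passed in any comparison.

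Among 26 regulators of the family 3 rose and 4 fell in L-GMP (median -0.0022), 5 rose and 2 fell in L-GMP-derived cells against GMP (0.08), and 5 rose and 2 fell against L-GMP (0.05). Pim1, a kinase known to phosphorylate Bad, read 292 to 432 in L-GMP, 1172 to 1783 in GMP and 3425 to 3917 in L-GMP-derived cells. It was 4.09-fold lower in L-GMP than in GMP (adjusted p = 2.62e-05) and 9.90-fold higher in L-GMP-derived cells than in L-GMP (adjusted p = 9.77e-07). Dynll2, a dynein light chain that tethers the BH3-only protein Bmf, was 2.20-fold higher in L-GMP-derived cells than in L-GMP (adjusted p = 4.43e-05). Foxo3 was 1.33-fold lower in L-GMP than in GMP (1444 ± 195 against 1909 ± 125, adjusted p = 0.0294). It no longer passed without GMP replicate 2 (0.0949), GMP replicate 3 (0.112) or L-GMP replicate 1 (0.0931; 0.00658 to 0.136 over all alternatives). The count of 4 lower genes in L-GMP became 2 without GMP replicate 2 or 3, and that of 3 higher genes became 1 without GMP replicate 1 and 0 without GMP replicate 3 or L-GMP replicate 1. In L-GMP-derived cells against GMP the 5 higher genes became 3 without GMP replicate 2. The 2 lower genes there became 0 without GMP replicate 3 and 1 without GMP replicate 1 or 2, L-GMP replicate 2, or L-GMP-derived replicate 1 or 3. Against L-GMP the 2 lower genes became 0 without L-GMP replicate 3 and 1 without L-GMP replicate 1 or L-GMP-derived replicate 2 or 3.

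**Figure D4:**
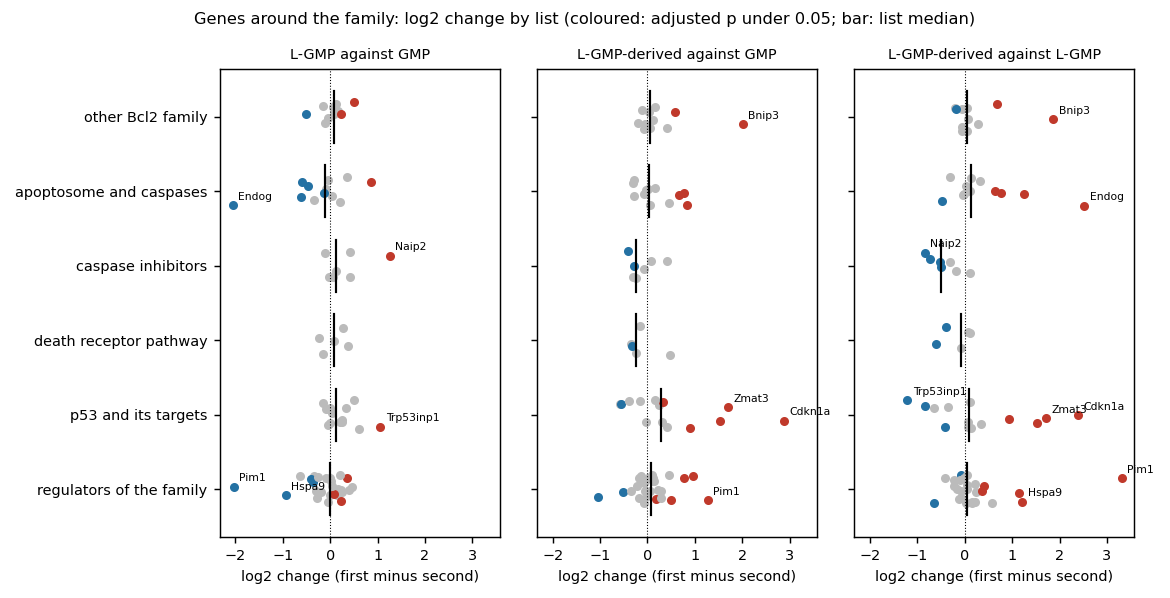
Log2 change (horizontal axis) of each tested gene of 6 lists around the family (rows) in the 3 comparisons (panels), 1 point per gene with vertical scatter for legibility. Red and blue points passed an adjusted p of 0.05 as higher and lower in the group named first, and black bars are list medians. Cdkn1a (7.37-fold) and Bnip3 (4.02-fold) stand out among L-GMP-derived cells against GMP, and Pim1 and Endog are low in L-GMP.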

How the data were processed

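The authors deposited a table of array intensities on a linear scale, 1 signal per probe set and array. The submitters' processing notes name MAS5 (version 5). The sources used here give neither its background correction and scaling target nor detection calls. Of the deposited values 0.939% are negative, and the authors' scaling was kept. Before log2, a floor of 62.4 (25th percentile over the whole table) replaced lower signals, so changes of probe sets that reach it are understated. Tests covered the 14578 probe sets with a signal over 111 (40th percentile) on 3 arrays or more, and left out 64 control probe sets. Symbols came from the platform annotation: 20393 probe sets had 1 symbol, 691 several and 1606 none; 20364 of the first matched RefSeq (GRCm38.p6).

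The 3 comparisons were fitted on all 9 arrays with limma 3.58.1 (its lmFit and eBayes functions, with a trend of the variance on intensity) under R 4.3.3. Tests were two-sided, with Benjamini-Hochberg adjustment over all tested probe sets and a threshold of 0.05. The fit was tested on simulated data. Every member probe set is given. Of each list, where a gene stands for its brightest probe set, up to 4 called genes per comparison could be named, or the 2 of largest change where none was called, and fewer are given; other genes named (cell type markers; Bik, Bmf and Hrk) were added for reference. Members and lists were chosen with earlier results of these data known. A fold is that between mean log2 signals, and is written "at least" where the lower group was at the floor on every array. Promoter sequences came from RefSeq and matched 9 of the 10 members. The number of arrays limits precision. Alternatives changed the scaling, floor, filter, trend or arrays of the fit, added array weights or a block for the replicate number, or left out 1 array at a time.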

Additional observations from a re-analysis of the deposited data

Results flagged for a closer look

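For 3 member probe sets the change from GMP differed between the leukemic groups, by the direct comparison of L-GMP-derived cells with L-GMP. Bid (1417045_at) differed by -0.70 on the log2 scale (adjusted p = 0.00169, limma), higher in L-GMP on 3 of 3 arrays, and Bcl2l11 (1456005_a_at) by -0.74 (adjusted p = 0.00562), also higher on 3 of 3. Bbc3 (1423315_at) differed by 0.52 in the other direction (adjusted p = 0.0315), higher in L-GMP-derived cells on 3 of 3 arrays. The call of Bbc3 was lost in 7 of 18 alternatives. The other Bid probe set (1448560_at) differed by -0.01 (adjusted p = 0.962). The other tested Bcl2l11 probe sets differed by -0.20 (1435448_at, adjusted p = 0.255) and 0.06 (1456006_at, 0.847).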

How the results depend on the processing

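The 57 changes of member probe sets (19 in 3 comparisons) were recomputed under 18 alternatives, which gave 1020 values. Of these, 969 stayed on the same side of the threshold, 32 lost and 19 gained a call. Where the main or the alternative value was called, 0 changed sign. In 48 values the sign changed with neither the main nor that alternative value past the threshold. With each array left out, the number of called member probe sets ran from 2 to 7 in L-GMP against GMP (6 with all arrays). It ran from 4 to 6 in L-GMP-derived cells against GMP (4) and from 2 to 4 between the leukemic groups (3). The share of all probe sets called moved too. It ran from 17% to 33.6% (25.9% with all arrays), from 15.8% to 30.6% (24.4%) and from 22.9% to 37.6% (29.9%) in these comparisons. With array weights the last 2 counts of members were 8 and 5. The number of all probe sets called was then 6912 in place of 3551 in L-GMP-derived cells against GMP, and 6482 in place of 4354 between the leukemic groups. Without GMP replicate 3 the counts over all probe sets were 2475 in place of 3777 in L-GMP and 2306 in place of 3551 in L-GMP-derived cells. The cause of these shifts was not tested.

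The labels do not say whether the replicate numbers pair the samples. Deviations of same-numbered L-GMP and L-GMP-derived arrays from their group means correlated at -0.309 to -0.133. Those of GMP and L-GMP arrays correlated at 0.170 (number 2) and -0.129 (number 3), and those of GMP and L-GMP-derived arrays at -0.276 and -0.0185. Of 3 L-GMP arrays 0 correlated best with the L-GMP-derived array of their own number. Deviations from a mean of 3 arrays depend on each other, so these values cannot decide whether samples were paired. With the replicate number as a block 2, 4 and 3 member probe sets were called in the 3 comparisons, and 1916, 1750 and 3272 of all probe sets. Of the 4, 3 were higher and 1 lower (Mcl1 1448503_at). Bak1 then lost its call in L-GMP-derived cells against GMP (adjusted p = 0.0736). One GMP array has no number in its label and got a level of its own, which takes it out of those comparisons. Pmaip1 could not be tested with the filter set on all 9 arrays. Bcl2 and the 5 member probe sets below the filter were too close to background for a small difference to be seen.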

Other observations

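The upstream windows of the members differed widely in base composition, from 47.6% G and C in a Bcl2l1 window to 81.6% in a Bbc3 window. Besides the forkhead motif, 3 further patterns were searched on both strands of the 250 bases before each start. A p53 half-site was found in 1 of 15 member windows, that of Bax, against 7.13% of all windows. Pmaip1 had no window in the search. The E-box CACGTG was found in 2, of Bax and of a Bbc3 start other than the one printed, against 6.02%, and the STAT motif TTCNNNGAA in 0, against 7.02%. Some windows of 1 gene overlap, and matches are descriptions of letters only.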
